A study of Mus musculus with 6 samples.

Results

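Keratins are the intermediate filament proteins of epithelial cells. The 53 keratin genes described here are the protein-coding mouse genes of the RefSeq annotation of mm10 whose symbol is Krt followed by a digit, out of 21000 protein-coding genes with a curated transcript. They were examined for binding of p65, the RelA subunit of nuclear factor kappa B (NF-κB), by chromatin immunoprecipitation followed by sequencing (ChIP–seq), which maps where a protein sits on DNA as peaks of sequenced fragments. A peak was counted as a keratin peak when the start site nearest to its midpoint, among curated transcripts of all genes, belonged to 1 of these genes. The peaks came from 3 lists, 1 for each condition, and of 8525 peaks in the adult list 29 were keratin peaks, of 4169 in the aged/IgG control list 15, and of 6014 in the aged/anti-IL-17A/F list 19.

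All groups were C57bl/6J mice, and the chromatin came from epidermal cells that had been released from skin with trypsin. Adult mice were untreated. Aged/IgG control mice had received a control IgG by intraperitoneal injection for 12 weeks, and aged/anti-IL-17A/F mice had received blocking antibodies against IL-17A and IL-17F on the same schedule. The study compared them to ask whether IL-17 acts on the aged epidermis through NF-κB. The labels give the ages only as adult and aged. The adult group thus differs from both aged groups in age and in having had no injections, which cannot be told apart. Reads of 4 mice were merged by the authors for each condition before peaks were called, so each condition had 1 list, no spread between mice could be had, and no test between conditions was possible. Peak lists hold no expression values, and the epidermal identity of the cells could not be checked against marker levels.

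The names of the peaks within the lists went against a label. Peaks of aged/IgG control are named Control_m. Those of the list labelled adult carry the name Treated_m, as do those of the other aged list. Lists are called here by their labels, as adult, IgG (aged/IgG control) and anti-IL-17 (aged/anti-IL-17A/F). If the adult and anti-IL-17 lists were exchanged, a gene present in both and missing from IgG would keep that pattern, as would a gene found in every list. Every other result that names adult or anti-IL-17 alone, or 1 of the pair with IgG, would swap these names, and exchanged readings of the main gene results are given beside them.

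Keratin filaments are built from pairs of 1 type I and 1 type II chain. In mammals almost all type I genes lie in 1 cluster and all type II genes in another, and neighbors within a cluster are used in different cells. Basal epidermal cells, which divide and attach to the basement membrane, make K5 and K14. Cells that leave the basal layer turn to K1 and K10, injured or inflamed epidermis to K6, K16 and K17, simple epithelia to K8 and K18, and hair follicles have keratins of their own in the inner root sheath and the hair shaft. NF-κB is switched on in keratinocytes by many cytokines, IL-17 among them, and p65 binds a DNA element known as the κB site.

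The sequences that follow are those at the summits of keratin peaks, from RefSeq's copy of mm10, on the plus strand. Each shows 50 bases to either side of the summit of the adult peak, and more where a motif match lay a little further out. Capitals mark matches to the NF-κB consensus or to TGANTCA, the element of the AP-1 family (Fos and Jun proteins). The first set comes from basal keratin genes, whose peaks were in the adult and anti-IL-17 lists and not in the IgG list.
Krt14, inside the gene, chr11:100206117-100206217: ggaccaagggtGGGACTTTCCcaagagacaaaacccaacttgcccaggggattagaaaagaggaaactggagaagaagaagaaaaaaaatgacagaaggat
Krt15, 139 bp upstream, chr11:100136043-100136143: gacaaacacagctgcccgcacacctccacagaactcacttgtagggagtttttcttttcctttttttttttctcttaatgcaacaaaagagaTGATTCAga
Krt15, 861 bp upstream, chr11:100136689-100136789: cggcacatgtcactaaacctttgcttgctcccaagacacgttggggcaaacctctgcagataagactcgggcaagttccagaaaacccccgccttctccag
Krt5, 4621 bp upstream, chr15:101717496-101717596: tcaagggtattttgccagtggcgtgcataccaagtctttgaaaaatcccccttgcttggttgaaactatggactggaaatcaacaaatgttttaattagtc
Of these 4 windows only that of Krt14 held an NF-κB match, and that of the nearer Krt15 site held an AP-1 match. An NF-κB match at the edge of the nearer Krt15 site, at chr11:100135795-100135804, lay outside the window shown. The second set shows sites that were found in every list.
Krt16, 210 bp upstream, chr11:100249031-100249206: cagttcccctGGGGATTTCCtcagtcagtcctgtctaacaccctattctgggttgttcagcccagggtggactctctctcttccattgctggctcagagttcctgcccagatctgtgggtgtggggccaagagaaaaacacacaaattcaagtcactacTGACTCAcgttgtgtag
Krt84, 3732 bp upstream, chr15:101536493-101536598: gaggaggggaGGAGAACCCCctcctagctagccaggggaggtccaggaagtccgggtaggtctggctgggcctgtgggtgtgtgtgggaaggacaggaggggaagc
Krt1, 4821 bp upstream, chr15:101855634-101855734: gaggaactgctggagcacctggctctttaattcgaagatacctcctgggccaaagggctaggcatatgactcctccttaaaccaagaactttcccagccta
Krt78, 20415 bp upstream, chr15:101974657-101974757: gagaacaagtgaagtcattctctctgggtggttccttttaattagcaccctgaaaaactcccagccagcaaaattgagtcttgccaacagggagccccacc
Krt78, 21934 bp upstream, chr15:101976226-101976326: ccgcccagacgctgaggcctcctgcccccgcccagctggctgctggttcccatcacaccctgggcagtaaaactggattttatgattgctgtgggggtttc
In this set the Krt16 site held both kinds of match and the Krt84 site an NF-κB match, whereas the windows of Krt1 and Krt78, which had the highest fold enrichments of the chromosome 15 cluster in adult, held neither. The last sequence is from Krt2, whose peak was in the adult and IgG lists and which also held an NF-κB match.
Krt2, 8406 bp upstream, chr15:101826487-101826609: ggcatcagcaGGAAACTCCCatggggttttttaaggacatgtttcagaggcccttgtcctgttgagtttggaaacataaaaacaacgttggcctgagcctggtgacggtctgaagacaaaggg

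Across the family, p65 peaks lay nearest to 19 of the 53 keratin genes in the adult list, to 11 in the IgG list and to 13 in the anti-IL-17 list. These are 35.8% of the genes (95% Wilson interval 24.3 to 49.3), 20.8% (12.0 to 33.5) and 24.5% (14.9 to 37.6), where the intervals cover counting error only. Of all protein-coding genes, 23.0% had a peak in the adult list, 12.9% in IgG and 17.4% in anti-IL-17. The background lay inside the interval in both aged lists and just under its lower end in the adult list. No keratin gene had a peak in an aged list without having one in the adult list (0 of 11 in IgG and 0 of 13 in anti-IL-17), beside 4.66% and 9.76% of all bound genes. All 19 genes bound in any list were therefore bound in the adult list. After an exchange all 19 would be bound in anti-IL-17, and Krt2, Krt10 and Krt77 would be bound in IgG and not in adult. Among all genes 25.1% were bound in any list.

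Keratin genes were split into 8 groups by the cells in which they are known to be used. All 3 basal genes (Krt5, Krt14, Krt15) had peaks in the adult list, none in IgG and all 3 in anti-IL-17. Of 5 suprabasal genes, 4 had peaks in adult (Krt1, Krt10, Krt2, Krt77), the same 4 in IgG and only Krt1 in anti-IL-17. Across all genes, 46.7% of those bound in adult had no IgG peak, and 40.1% of these had an anti-IL-17 peak. Of all genes bound in IgG, 10.1% had no anti-IL-17 peak. The IgG peaks of Krt2 and Krt10 had −log10 q values of 3.04 and 3.95 and were lost at 5 or more, and that of Krt10 was not at the adult site. After an exchange the suprabasal counts would be 1 in adult, 4 in IgG and 4 in anti-IL-17, and the basal counts would stay. With so few genes, and 1 list per condition, the counts are descriptions. Of 6 simple epithelial genes, 4 were bound in adult (Krt7, Krt8, Krt19, Krt23), 0 in IgG and 2 in anti-IL-17 (Krt8, Krt19). Of 5 genes of stress and the outer root sheath, Krt16 had a peak in every list and Krt6a, Krt6b, Krt17 and Krt75 in none. The inner root sheath was represented by 1 of 7 genes in each list (Krt73), the hair shaft by 2 of 15 (Krt31, Krt84), and the mucosal and corneal genes (Krt4, Krt12, Krt13, Krt76) by 0 of 4. The remaining 8 genes had peaks at Krt42, Krt78 and Krt80 in every list and at Krt222 in adult. Beside these group counts, 23.0% of all protein-coding genes had a peak in adult, 12.9% in IgG and 17.4% in anti-IL-17.

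**Figure D1:**
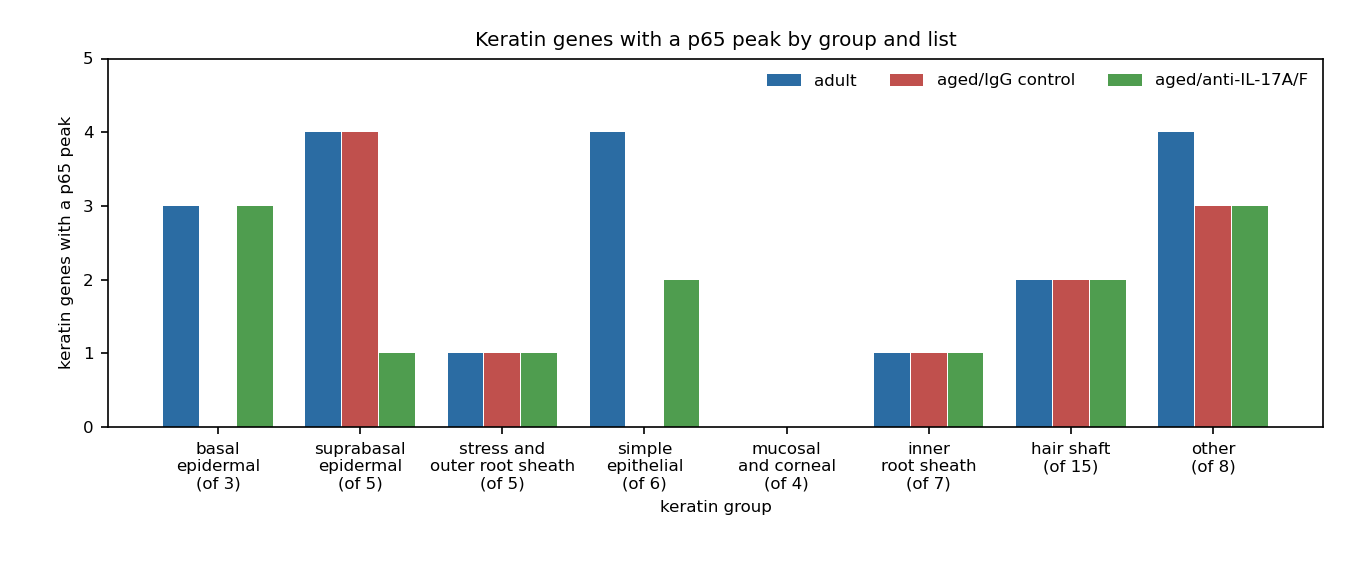
Number of keratin genes (vertical axis) with at least 1 p65 peak in each list, for 8 groups of keratin genes with the group size in parentheses. Bars are counts from 1 list per condition and have no error. The basal group has 3 genes in adult and anti-IL-17 and 0 in IgG, and the suprabasal group has 4, 4 and 1.

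No list had a peak at 34 of the 53 keratin genes, and 19 were bound in at least 1 list (35.8%, beside 25.1% of all protein-coding genes). Apart from the genes just named, the unbound genes were Krt25, Krt26, Krt27, Krt28, Krt71 and Krt72 of the inner root sheath, Krt9 of the palmar and plantar suprabasal layers, Krt18 and Krt20 of simple epithelia, Krt24, Krt79, Krt88 and Krt90, and 13 genes of the hair shaft. Split by type, 9 of 28 type I genes and 10 of 25 type II genes were bound in adult, 4 and 7 in IgG, and 6 and 7 in anti-IL-17, beside 23.0%, 12.9% and 17.4% of all protein-coding genes. Parts of some genes cannot be told apart by short reads. Within 1 kb of the start site, 29.8% of 50-base stretches at Krt6a and 29.3% at Krt6b had an exact copy elsewhere in the keratin clusters, beside 23.1% at Krt16, and the part of such copies in the missing peaks of Krt6a and Krt6b was not tested.

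Pairs of keratins that form 1 filament did not always have the same lists. Krt5 and Krt14, partners in the basal layer, had peaks in the same lists, adult and anti-IL-17. Krt1, a suprabasal chain, had a peak in every list, and its partner Krt10 had none in anti-IL-17. Krt16 had peaks in every list and Krt6a and Krt6b, its partners, had none. Krt8 was bound in adult and anti-IL-17 and its partner Krt18 in no list. With predicted transcripts added to the annotation, Krt10 had a peak in every list and Krt8 in none, so that neither of these pairs differed. After an exchange of lists, Krt10 would have its missing peak in adult, and the other pairs would read as before.

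Keratin peaks were of middling strength. The fold enrichment of a peak is the authors' ratio of signal to the local background, and it is compared here only within a list. The median over keratin peaks was 3.48 in adult, 3.70 in IgG and 3.53 in anti-IL-17, beside 3.60, 3.80 and 3.69 over all peaks of the lists. Keratin peaks ranged from 2.40 to 8.26 in adult, from 2.21 to 5.41 in IgG and from 2.26 to 4.60 in anti-IL-17. The median keratin peak stood at percentile 46.0, 46.8 and 45.5 of its list. Median widths were 452, 430 and 457 bp.

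The basal keratins Krt14, Krt15 and Krt5 had no peak in IgG and 4 peaks in each of the other lists. Krt14 encodes the type I chain that pairs with K5. Its peak lay inside the gene, in the adult list at chr11:100205920-100206332 at 3.22-fold enrichment (−log10 q 10.6), and in anti-IL-17 at chr11:100205713-100206400 at 3.91-fold (16.2). The midpoints were 1384 and 1454 bp inside the gene from the start of its longer transcripts, in an intron, and 96 and 26 bp upstream of a shorter curated transcript. The nearest IgG peak was 42611 bp away from the adult peak. The NF-κB match GGGACTTTCC at chr11:100206128-100206137 lay within 100 bp of both summits.

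Krt15, a keratin of basal cells and of the hair follicle bulge where follicle stem cells reside, had a pair of peaks upstream of its start. The nearer, centered 139 bp upstream in adult, had a fold enrichment of 4.76 (−log10 q 22.4) in adult and of 3.92 (14.3) in anti-IL-17. The further, 861 bp upstream, had 4.72 (22.2) and 4.34 (18.5). No IgG peak lay within 79664 bp of the nearer or 80450 bp of the further adult peak. Of all adult peaks from the fold enrichment decile that held these 2 peaks, 74.2% overlapped an IgG peak. The corresponding share was 22.8% for the adult peak of Krt14. Adult peaks as weak as it were thus mostly missing from the IgG list across the genome. For the anti-IL-17 peak at the Krt14 site this was otherwise, since 60.2% of anti-IL-17 peaks of its decile overlapped an IgG peak. The shares for the anti-IL-17 peaks of Krt15 were 60.2% at the nearer and 77.4% at the further site.

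Krt5 encodes the type II basal chain. Its single peak, 4621 bp upstream of the start, had a fold enrichment of 4.37 in adult at chr15:101717299-101717754 (−log10 q 20.3) and of 3.21 in anti-IL-17 at chr15:101717323-101717673 (11.4). The nearest peak of IgG was 91840 bp from the adult peak, and 55.4% of adult peaks of like strength overlapped an IgG peak. For the anti-IL-17 peak of Krt5 this share, among anti-IL-17 peaks, was 36.8%. Of the 8 keratin genes bound in adult and not in IgG, these 3 and Krt8 and Krt19 had a peak in anti-IL-17, and Krt7, Krt23 and Krt222 had none. The 8 were 8 of 19 adult-bound keratin genes, beside 46.7% of all adult-bound genes, and the 5 were 5 of 8, beside 40.1%. They were also 5 of the 13 genes bound in anti-IL-17, beside 33.3% of all genes bound there that had no IgG peak. If the lists labelled adult and anti-IL-17 were exchanged, the first 5 genes would keep their pattern and the other 3 would be bound in anti-IL-17 only. The return in anti-IL-17 depended on the threshold. At a −log10 q of 5 or more, 11 keratin genes had an adult peak without an IgG peak. Of these, Krt14, Krt15, Krt19, Krt31 and Krt5 had a peak in anti-IL-17, and Krt8 lost its peak there. At 10 or more this set held 8 genes, of which only Krt14, Krt15 and Krt5 had an anti-IL-17 peak. The shares of all genes given above are for the whole lists.

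Simple epithelial genes had peaks in adult, and some in anti-IL-17, at distances from 62 to 23346 bp from their starts. Krt8, the type II chain of simple epithelia, had 3 adult peaks. That 23346 bp downstream of the start, beyond the end of the gene, had fold enrichments of 2.91 in adult and 2.26 in anti-IL-17 (−log10 q 12.0 and 4.60). The others, 20047 bp downstream and 1346 bp upstream, were in adult only, with 4.73 (26.2) and 3.05 (7.38). Krt19, whose product lacks the usual tail domain, had a peak 22318 bp upstream with 2.40 (5.56) in adult and 3.53 (11.7) in anti-IL-17. Krt23 had an adult peak centered 62 bp upstream of its start with 3.39 (13.3), and Krt7 one 9306 bp upstream with 3.01 (7.93). With predicted transcripts added to the annotation, the peaks of Krt7, Krt8 and Krt19 were nearest to other starts, and the genes bound in adult and not in IgG became 5, of which Krt14, Krt15 and Krt5 were bound in anti-IL-17.

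The suprabasal genes Krt10, Krt2 and Krt77 showed the other pattern, with peaks in adult and IgG and none in anti-IL-17. They were 3 of the 11 keratin genes bound in IgG, beside 10.1% of all genes bound there that had no peak in anti-IL-17. Krt2, a type II chain of the upper suprabasal layers, had its peak 8406 bp upstream with 3.53 (−log10 q 11.1) in adult and 2.21 (3.04) in IgG. Krt77 had a peak 126 bp upstream with 3.13 (9.28) and 2.98 (6.77), and another in adult alone, 6716 bp upstream, with 2.45 (5.95). At Krt10, the type I suprabasal chain, the lists did not share a site. The adult peak was 1801 bp upstream at chr11:99391016-99391315 with 3.33 (10.1), and the IgG peak 2832 bp upstream at chr11:99392022-99392371 with 2.58 (3.95), 706 bp apart. At a −log10 q of 5 or more the IgG list kept Krt77 and lost Krt2 and Krt10. With predicted transcripts added, Krt77 alone was bound in IgG and not in anti-IL-17, since the Krt2 peaks were nearest to another start and Krt10 gained a peak in anti-IL-17. After an exchange these genes would be bound in both aged lists and not in adult.

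All 3 lists shared 11 sites, at Krt1, Krt16, Krt42, Krt73, Krt78, Krt80 and Krt84. Krt1, the type II chain of the suprabasal layers, had its site 4821 bp upstream of the start, at chr15:101855269-101855946 in adult. Its fold enrichments were 6.00, 3.74 and 4.50 in adult, IgG and anti-IL-17, with −log10 q values of 44.6, 16.2 and 22.1. At Krt16, induced in injured epidermis, the shared site 210 bp upstream had 3.98, 3.70 and 3.93 (18.3, 11.8 and 15). A further adult peak 4253 bp upstream, with 3.30 (11.4), had no counterpart in either aged list.

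The highest keratin values of adult and anti-IL-17, and those of chromosome 15 in IgG, were upstream of Krt78, a type II keratin of stratified epithelia. The site 20415 bp upstream had fold enrichments of 7.70, 5.12 and 4.60 in adult, IgG and anti-IL-17 (−log10 q 59.3, 25.02 and 31.6). The site 21934 bp upstream had 8.26, 4.41 and 3.98 (70.0, 19.0 and 24.95). The other Krt78 site, 23134 bp upstream, was weaker in adult than its neighbors, with 3.07, 4.21 and 2.74 (9.92, 17.3 and 7.56), and the summits in the 3 lists were 262 bp apart there, the widest spread of the 11 sites. The strongest keratin peak of adult was that 21934 bp upstream, and those of anti-IL-17 and, on chromosome 15, of IgG were 20415 bp upstream. A predicted transcript of Krt78 starts further upstream and spans all 3 sites, which would then be intronic.

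Krt42, a type I gene at the end of the chromosome 11 cluster, had 3 shared sites. The site 17221 bp upstream had 6.08, 5.41 and 3.45 (−log10 q 47.3, 29.5 and 19.2), the highest keratin values of chromosome 11 in adult and the highest keratin value of both chromosomes in IgG. In anti-IL-17 the keratin peak of chromosome 11 with the highest fold enrichment was the further Krt15 peak, whereas by −log10 q this Krt42 site stood above it (19.2 against 18.5). Another Krt42 peak, 13684 bp upstream with 2.76 (6.41), was found in that list alone. The Krt42 sites 8305 and 19276 bp upstream had 5.28, 3.14 and 3.19 (35.7, 10.8 and 11.9) and 4.45, 2.88 and 3.14 (30.3, 10.8 and 16.1). The Krt84 site, 3732 bp upstream of this hair shaft keratin, had 5.0, 4.76 and 4.13 (30.3, 21.5 and 16.8). Krt73 of the inner root sheath had 4.03, 3.77 and 3.85 (16.7, 12.4 and 13.7) at 7332 bp upstream. The Krt80 site, centered 180 bp inside the gene, was among the weakest, with 3.48, 2.61 and 2.87 (14.7, 5.78 and 9.65).

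Krt31 of the hair shaft was bound in every list but not at 1 site. The peaks 5371 bp upstream were in IgG with 2.67 (−log10 q 4.75) and in anti-IL-17 with 2.73 (6.83), and the adult peak lay 17146 bp upstream with 2.61 (6.34). After an exchange the nearer site would be one of adult and IgG and the further one of anti-IL-17. With Krt31 the genes bound in every list were 8 of 53, beside 11.4% of all genes. At a −log10 q of 5 or more Krt31 was lost from the IgG list. The last adult-only peaks were at Krt222, 37 bp inside the gene with 3.26 (8.92), and 12855 bp upstream of Krt80 with 2.53 (6.06).

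**Figure D2:**
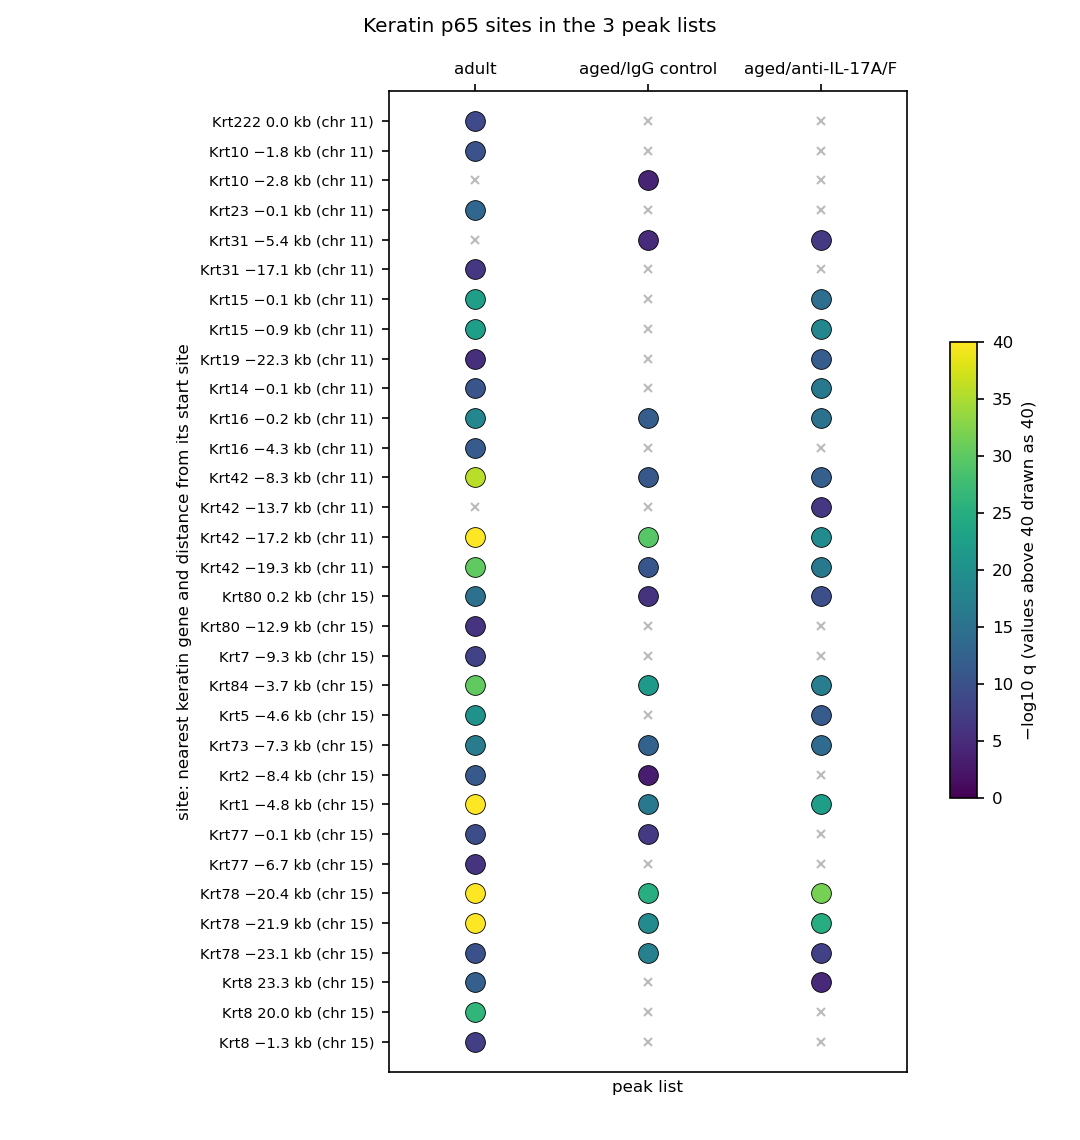
The 32 keratin sites (rows, named by the nearest keratin gene and the distance from its start, negative upstream) in the 3 lists (columns). Filled circles are peaks colored by −log10 q, with values over 40 drawn as 40, and crosses mark no peak. All 3 columns are filled in 11 rows, and Krt15, Krt14 and Krt5 are filled in adult and anti-IL-17.

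Merging overlapping peaks of the 3 lists gave 32 keratin sites of 9513 sites in all. All 3 lists held 11 of them (34.4%, beside 36.6% of all sites). Adult and anti-IL-17 shared a further 6 (18.8%, beside 17.0%), adult and IgG 2 (6.25%, beside 3.91%) and both aged lists 1 (beside 1.05%). Adult alone held 10 (31.3%, beside 31.6%), IgG alone 1 (beside 1.84%) and anti-IL-17 alone 1 (beside 8.01%). The distribution of keratin sites over the lists thus followed that of all sites within a few percentage points in the larger classes.

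Peak by peak, 13 of 29 adult keratin peaks overlapped an IgG peak (44.8%, Wilson interval 28.4 to 62.5, beside 45.5% of all adult peaks) and 17 of 29 an anti-IL-17 peak (58.6%, 40.7 to 74.5, beside 60.4%). In the other direction, 13 of 15 IgG peaks overlapped adult (86.7%, beside 93.3%) and 12 of 15 anti-IL-17 (80%, beside 86.6%). Of anti-IL-17 peaks, 17 of 19 overlapped adult (89.5%, beside 85.6%) and 12 of 19 IgG (63.2%, beside 59.9%). None of these 6 shares had an interval that left out its background. The 13 adult keratin peaks found in IgG had a median fold enrichment of 4.45, and the 16 that were missing had 3.24. For anti-IL-17 keratin peaks the medians were closer, 3.65 for the 12 found in IgG and 3.53 for the 7 that were missing. When each keratin peak was set beside all adult peaks of its decile by fold, the mean share overlapped was 45.3% in IgG and 60.7% in anti-IL-17.

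The lengths of the lists bear on the gene counts. When every list was reduced to its 4169 strongest peaks by −log10 q, the length of the IgG list, adult had 10 bound keratin genes, IgG 11 and anti-IL-17 10. These are 18.9%, 20.8% and 18.9% of the keratin genes, beside 13.14%, 12.89% and 13.01% of all protein-coding genes. Krt15, Krt5 and Krt8 were then bound in adult and not in IgG, and Krt10, Krt2, Krt31 and Krt77 in IgG and not in adult. Krt14 and Krt19 dropped out of the adult list and stayed in that of anti-IL-17, and Krt8 dropped out of the anti-IL-17 list. Of the basal genes, Krt15 and Krt5 thus kept their lists at equal length and Krt14 did not.

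**Figure D3:**
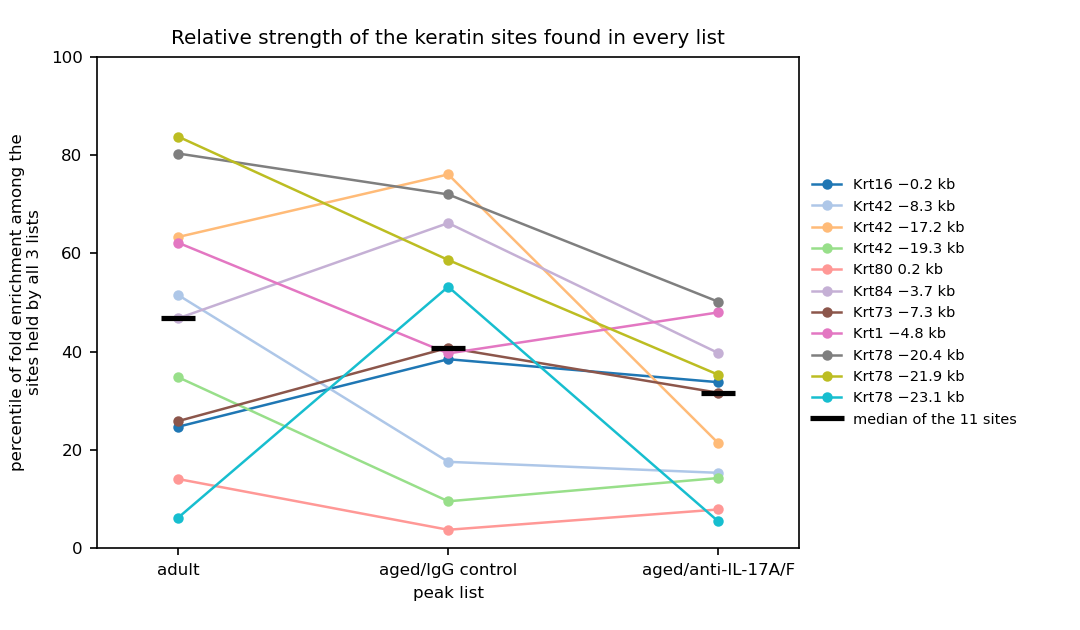
Percentile of fold enrichment among the 3486 sites held by all 3 lists (vertical axis, 0 to 100) of the 11 keratin sites found in every list, 1 line a site, with black bars for the medians. The medians are 46.8 in adult, 40.8 in IgG and 31.6 in anti-IL-17, and lines cross between lists.

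To set the shared sites side by side, each was ranked by fold enrichment among the 3486 sites held by all 3 lists. The median percentile of the 11 keratin sites was 46.8 in adult (6.20 to 83.7), 40.8 in IgG (3.73 to 76.0) and 31.6 in anti-IL-17 (5.45 to 50.1). Ranked by −log10 q instead, the medians were 46.4, 46.7 and 29.1, so that adult was not above IgG by that measure. Adult ranked above anti-IL-17 at 9 of 11 sites and above IgG at 6 of 11, and IgG ranked above anti-IL-17 at 8 of 11. The Krt42 site 17221 bp upstream stood at 63.3, 76.0 and 21.4, and the Krt78 site 21934 bp upstream at 83.7, 58.6 and 35.3. Krt1 stood at 62.1, 39.6 and 48.0, and Krt16 at 24.7, 38.4 and 33.8. The Krt78 site 23134 bp upstream, at 6.20, 53.2 and 5.45, was high in IgG alone. An exchange would turn the order of adult and anti-IL-17 at every site. Without replicates, the spread of such a percentile between mice is unknown. Summits of the 3 lists lay a median of 55 bp apart at these sites, beside 45 bp at all shared sites.

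The type I genes other than Krt18 lie in a cluster on chromosome 11, from Krt222 at 99232761 to Krt42 at 100269951. All 27 keratin genes there are on the minus strand, and 38 other protein-coding genes lie between them, 23 of which are Krtap genes for the matrix proteins of hair. The adult list had 14 peaks inside, IgG 3 and anti-IL-17 7, or 13.5, 2.89 and 6.75 peaks per Mb. The genome as a whole had 3.13, 1.53 and 2.21, chromosome 11 had 6.19, 2.90 and 4.61, and the flanks of the same length had 25.5, 14.5 and 23.1. The cluster thus held fewer peaks per Mb than its flanks in every list. In lists of 4169 peaks each, adult and anti-IL-17 both had 4.82 peaks per Mb there and IgG 2.89. A stretch of 444 kb in adult, 664 kb in IgG and 652 kb in anti-IL-17 held no peak, and it took in 15, 23 and 23 Krtap genes and 4, 10 and 9 keratin genes. Counting the Krt42 peaks beyond the last gene, 13, 6 and 10 keratin peaks belonged to this cluster.

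**Figure D4:**
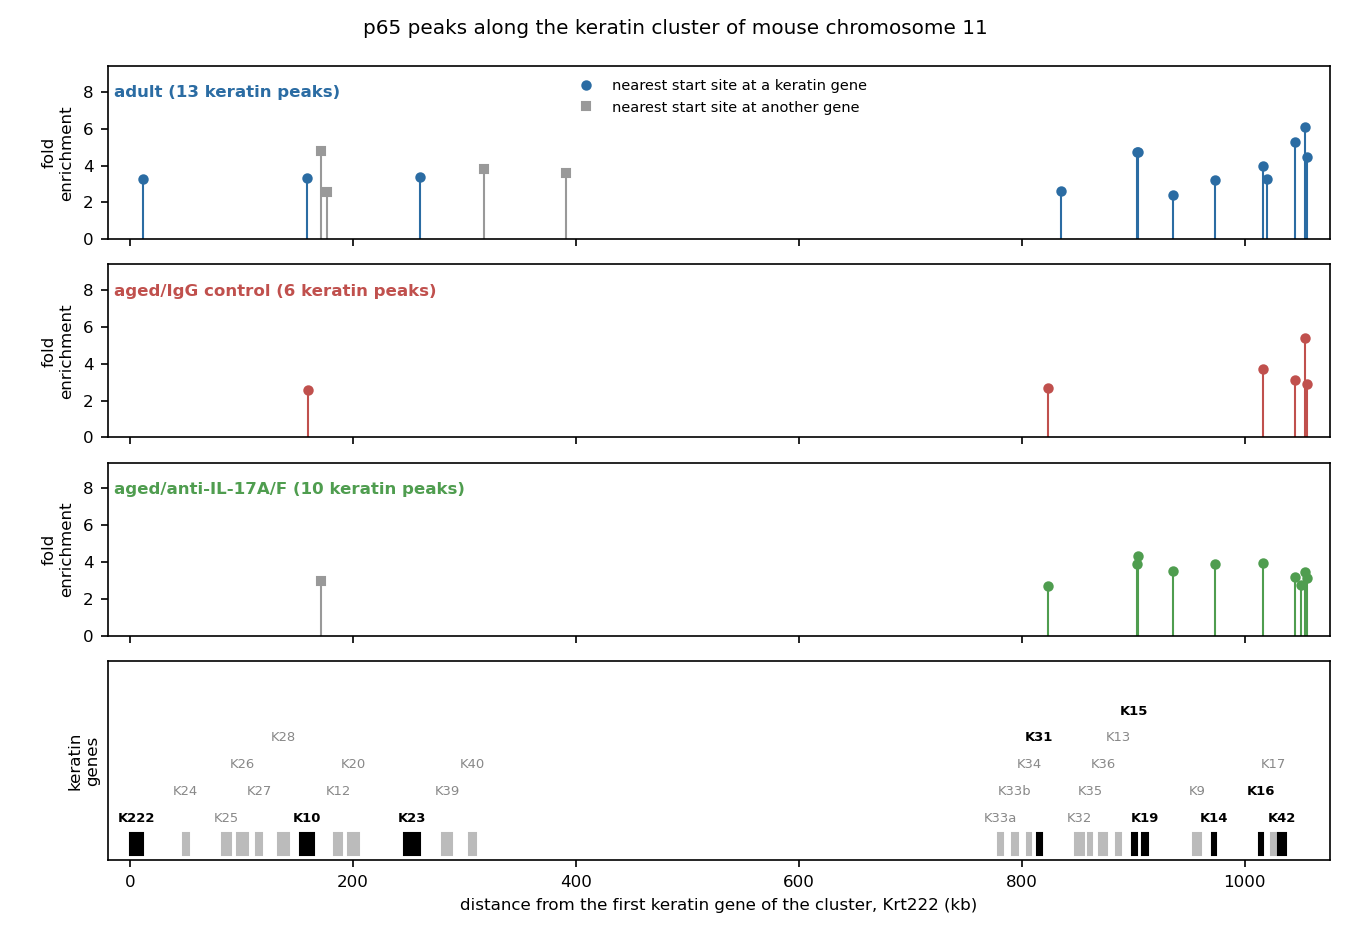
Fold enrichment (vertical axis) of p65 peaks along the chromosome 11 cluster against the distance from the first gene, Krt222 (kb), in the 3 lists, with keratin genes at the bottom (K14 stands for Krt14 and so on, black with a peak in any list, gray without). Colored stems are keratin peaks, 13 in adult, 6 in IgG and 10 in anti-IL-17, and gray stems are peaks nearest to other genes.

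The type II cluster on chromosome 15 runs from Krt80 at 101348315 to Krt18, the type I gene at its edge, at 102032026. It holds 26 keratin genes, 4 on the plus and 22 on the minus strand, and 1 other protein-coding gene. All peaks inside were keratin peaks, 16 in adult, 9 in IgG and 9 in anti-IL-17, or 23.4, 13.2 and 13.2 per Mb. The flanks had 18.3, 8.04 and 14.6 per Mb and the chromosome 3.94, 1.85 and 2.66. In lists of 4169 peaks each the cluster had 11.7 in adult, 13.2 in IgG and 8.78 in anti-IL-17, so that adult was no longer above IgG. In contrast to chromosome 11, with the whole lists this cluster was denser in peaks than its flanks in adult and IgG, and slightly less dense in anti-IL-17. Both clusters gave 16 of the 32 sites. The longest stretch without a peak was 181 kb in adult and anti-IL-17, with 6 keratin genes, and 273 kb in IgG, with 9, and it ended at the Krt5 peak in the first pair of lists.

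**Figure D5:**
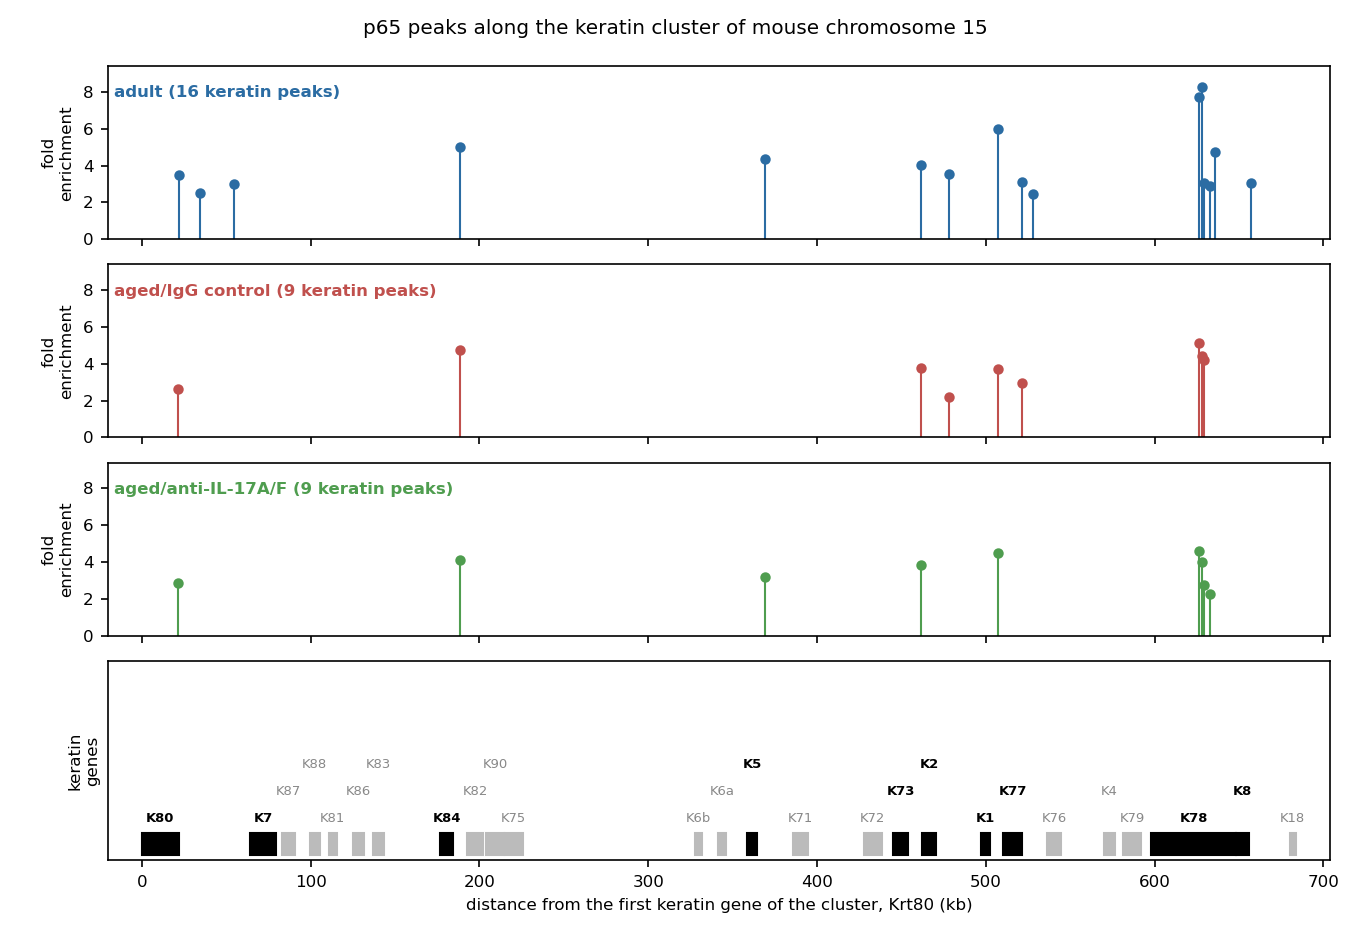
Fold enrichment (vertical axis) of p65 peaks along the chromosome 15 cluster against the distance from the first gene, Krt80 (kb), in the 3 lists, with keratin genes at the bottom (K5 stands for Krt5 and so on, black with a peak in any list, gray without). Adult has 16 keratin peaks and each aged list 9, and the tallest stems are those upstream of Krt78.

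By curated transcripts, most keratin peaks lay between genes and upstream of the nearest start. Upstream of the nearest start were 25 of 29 in adult, 14 of 15 in IgG and 17 of 19 in anti-IL-17 (86.2%, 93.3% and 89.5%), beside 45.6%, 46.4% and 46.2% of all peaks at protein-coding genes. The summit was intergenic for 89.7%, 93.3% and 89.5%, beside 45.8%, 47.4% and 46.5%. The full annotated spans of Krt10 and Krt78 reach beyond their curated starts. They take in the peaks of these genes and the Krt8 peaks downstream of its start, which were counted as intergenic. Within 1 kb of the start were 8, 3 and 5 peaks (27.6%, 20% and 26.3%, beside 39.99%, 35.8% and 36.6%), and beyond 10 kb were 10, 5 and 8. Peaks of neighboring genes in a cluster are not independent, and no test of these shares was made.

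NF-κB matches were found at a minority of keratin peaks. A match to the NF-κB consensus, on either strand, lay within 100 bp of the summit of 6 of 29 keratin peaks in adult (20.7%, Wilson interval 9.85 to 38.4), 3 of 15 in IgG (20%, 7.05 to 45.2) and 3 of 19 in anti-IL-17 (15.8%, 5.52 to 37.6). Over all peaks of the lists the shares were 28.5%, 37.8% and 34.9%, and in windows of the same length 2000 bp away 2.18%, 1.95% and 2.26%. In such windows beside the keratin peaks the shares were 3.45%, 6.67% and 7.89%. Each interval included the share over all peaks of its list. Within 50 bp of the summit this no longer held in anti-IL-17, where 1 of 19 keratin peaks had a match (5.26%, 0.935 to 24.6) beside 27.1% of all peaks. Over whole sites, 9 of 32 keratin sites held an NF-κB match (28.1%, beside 34.7% of all sites), 9 an AP-1 match (28.1%, beside 23.6%) and 2 a match to AACNGGTT, the element of Grainyhead-like factors (6.25%, beside 7.48%). Both NF-κB and AP-1 matches were at the Krt16 site 210 bp upstream and the Krt15 site 139 bp upstream, and 16 sites held neither. By chromosome, 7 of 16 sites on chromosome 11 and 2 of 16 on chromosome 15 held an NF-κB match, and the same counts held for AP-1.

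Among sites present in every list, 2 of 11 keratin sites held an NF-κB match, beside 50.8% of all such sites. These were Krt16, with GGGGATTTCC at chr11:100249041-100249050, and Krt84. The Krt78 sites, which include the strongest keratin peak of the adult list, held none, and of the 3 only that 23134 bp upstream held AP-1 matches. No match says only that these letters are absent from the window. In the RefSeq table of promoters, from 250 bases before to 50 after each start, 37 promoters of 36 keratin genes were present. An NF-κB match was in 3 of them, those of Krt14, Krt23 and Krt79 (8.11%, beside 4.51% of 32851 promoters), of which Krt14 and Krt23 had peaks. AP-1 matches were in 2, both of Krt13 (5.41%, beside 7.81%), which had no peak.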

How the data were processed

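Epidermal cells of 4 mice per condition were used for p65 ChIP–seq. According to the methods and the submitters' processing notes, the authors used Trimmomatic 0.36 for trimming and BWA for alignment to mm10, merged the mice and removed duplicates with SAMtools, and downsampled to equal read numbers. MACS2 then called the peaks (q value 0.01). Whether the 3 input libraries, which were not used here, entered the calling is not given in the sources used here. Merging removes the variation between mice, and equal read numbers do not equalize the efficiency of the immunoprecipitation. The deposited lists hold per peak a score (10 times the −log10 q), the fold enrichment (a ratio over the local level), −log10 values of p and q, and the summit. The read depth behind a peak is unknown.

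Here, peaks were assigned to the nearest start site of curated RefSeq transcripts (GRCm38.p6) from their midpoint. Overlap meant at least 1 bp, and shares have 95% Wilson intervals. Motifs were sought on both strands, and steps were tested on simulated data. Computations used Python 3.11.15, numpy 2.4.6, pandas 2.3.3, scipy 1.17.1 and matplotlib 3.10.9. The keratin genes, their groups and the lists of other filament genes were chosen with earlier results of these data known. Every keratin gene with a peak is named, and given in full are sites in all 3 lists, the strongest peak of each list in each cluster, peaks within 1 kb of a start, and those of the main basal, suprabasal, stress and simple keratins. Alternatives were stricter thresholds, lists of equal length, other overlap, annotation, distance and motif rules, and the adult and anti-IL-17 lists exchanged.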

Additional observations from a re-analysis of the deposited data

How the results depend on the processing

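Of 123 values recomputed under the alternatives, 86 moved little and 37 moved by more than the counting interval or, for counts, by more than 1.5 times. No replicate could be left out, since each condition had 1 list. No paired analysis was possible because the 3 lists come from merged mice and no test was made. With lists of 4169 peaks each, the adult list had 10 bound keratin genes and 14 keratin peaks, 71.4% of which overlapped IgG and 85.7% anti-IL-17, with 4.82 peaks per Mb of the chromosome 11 cluster and 11.7 of the chromosome 15 cluster. Sites in adult and anti-IL-17 were then 3, in adult and IgG 1, in both aged lists 0, in adult alone 1, in IgG alone 5 and in anti-IL-17 alone 2. With a −log10 q of at least 5, sites in adult and IgG were 1, in both aged lists 0, in IgG alone 0 and in anti-IL-17 alone 2, and IgG had 0.964 peaks per Mb of the chromosome 11 cluster. With at least 10, IgG had 6 bound keratin genes (11.3%, beside 9.63% of all genes) and again 0.964 peaks per Mb there, sites in adult and IgG were 0 and in both aged lists 0, and adult had 14.6 peaks per Mb of the chromosome 15 cluster. Within 10 kb of the start were 19 adult and 11 anti-IL-17 keratin peaks. Within 50 bp of the summit, 5.26% of anti-IL-17 keratin peaks had an NF-κB match, beside 27.1% of all its peaks. After the exchange of the adult and anti-IL-17 lists, adult had 19 and anti-IL-17 29 keratin peaks, 63.2% of adult peaks overlapped IgG and 89.5% anti-IL-17, and cluster densities were 6.75 and 13.5 per Mb on chromosome 11 and 13.2 and 23.4 on chromosome 15. Sites in adult and IgG were then 1, in both aged lists 2, in adult alone 1 and in anti-IL-17 alone 10. The shifts after the exchange follow from the swap itself, and those of shortened lists from fewer peaks. A peak near the threshold can be absent from a list with little difference in signal, and a bound gene here is only the nearest one.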

Other observations

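A list apart from the keratins held proteins that tie keratin filaments to cell junctions or organize them, and Trp63, a transcription factor of stratified epithelia. Of its 11 genes with a curated transcript, 7 had a p65 peak in adult, 4 in IgG and 8 in anti-IL-17, beside 23.0%, 12.9% and 17.4% of all protein-coding genes. Jup, Plec, Pkp1 and Trp63 had peaks in every list. Jup (plakoglobin) had 2 peaks in each, with top fold enrichments of 3.46 in adult, 3.29 in IgG and 3.67 in anti-IL-17. Trp63 had 8, 5 and 7 peaks. Dsp (desmoplakin, the desmosome's link to keratin), Ppl (periplakin) and Evpl (envoplakin) had peaks in adult and anti-IL-17 and none in IgG. The top fold enrichment of Dsp was 3.14 in adult and 3.27 in anti-IL-17, that of Ppl 3.68 and 2.40, and that of Evpl 2.39 and 2.39. They were 3 of the 7 genes bound in adult, beside 46.7% of all adult-bound genes that had no IgG peak. All 3 had a peak in anti-IL-17, beside 40.1% of all such genes. Of their top fold enrichments, all but the adult value of Ppl lay below the median over all peaks of the list. These medians were 3.60 in adult and 3.69 in anti-IL-17, and the part of low strength in the missing IgG peaks was not tested. Dst had 2 peaks in anti-IL-17 alone (in adult after an exchange of these lists), the stronger at 2.65.

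Of 15 other intermediate filament genes, 3 had a peak in any list, beside 25.1% of all protein-coding genes. Lmna, of the nuclear lamina, had 5, 3 and 4 peaks in adult, IgG and anti-IL-17 with top fold enrichments of 11.2, 6.84 and 12.8, and Lmnb1, also of the lamina, had 3, 1 and 2 peaks. Bfsp1 had 1 adult peak (anti-IL-17 after an exchange), and the others, among them Vim and Des, had none in any list. Of 56 Krtap genes, which encode the matrix of hair, only Krtap3-3 had a peak, in adult (anti-IL-17 after an exchange), of 3.83-fold enrichment, beside 23.0% of all protein-coding genes with a peak in that list.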
